A study of Mus musculus with 16 samples.

Results

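The genes described here are 39 mouse genes that handle amino acids for protein synthesis: 20 cytosolic aminoacyl-tRNA synthetase genes, 8 amino acid transporter genes, 4 genes of amino acid enzymes and 7 genes of the integrated stress response. They were chosen by name and function, with earlier results of these data known. Each was found by its identifier among the 55573 gene identifiers of the count table. After the filter on low counts 13711 genes were tested, and all 39 members were among them.

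RNA was sequenced from OT1 cells, which are CD8 T cells of C57BL/6 mice carrying a transgenic receptor for an ovalbumin (OVA) peptide. The titles define 4 groups of 4 libraries: Foxp3UP with its control MockUP, and Foxp3DN with its control MockDN. All groups share the OT1 receptor, the transfer into tumour-bearing mice and the recovery by sorting, and as far as the labels say, a Mock group differs from its Foxp3 group by the Foxp3 label alone. Per the series' design text, mice with tumours were given Foxp3UP cells mixed with Mock cells, and 5 days later these cells were recovered from tumour suspensions, gated as viable cells with CD8 and with CD45.1 or CD90.1 or both. The labels leave unsaid what UP and DN abbreviate, how Foxp3 was introduced, which tumour was used, and how old the mice were. The 5 days are given for the Foxp3UP and MockUP libraries only. No day is given for Foxp3DN and MockDN, so it is not known whether the arms share it. The labels do not say that the 4 libraries of a group came from separate animals, so p-values may measure technical spread only.

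Aminoacyl-tRNA synthetases join each amino acid to its transfer RNA, and several of them sit together in the cytosol as the multisynthetase complex. Amino acids reach them through membrane transporters, some of which are pairs of a light chain that carries the amino acid and a shared heavy chain, and activated T cells raise these transporters to grow. When amino acids run short or another stress arises, phosphorylation of eIF2 alpha favours the translation of the transcription factor ATF4, which with C/EBP partners binds composite sites in many synthetase, transporter and amino acid enzyme genes, and this program is called the integrated stress response.

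Promoter windows were read for 27 of the 39 genes from RefSeq (build GRCm38.p6), each from 250 bases before to 50 bases after a gene's start, because shared letters at the start are one thing that members of this program can have in common. The composite core TGATGCAA, the looser form TGATGNAA (which includes every core match) and the E-box CACGTG were searched on both strands. The windows of the called synthetases with the core and of Asns, the textbook ATF4 target, are printed up to 30 bases past the start, with the matches in capitals.
Iars: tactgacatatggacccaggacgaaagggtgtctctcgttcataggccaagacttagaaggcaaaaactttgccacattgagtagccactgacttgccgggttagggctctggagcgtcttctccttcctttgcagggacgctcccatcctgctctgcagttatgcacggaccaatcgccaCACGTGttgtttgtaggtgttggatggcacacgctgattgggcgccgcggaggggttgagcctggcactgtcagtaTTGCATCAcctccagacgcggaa
Asns: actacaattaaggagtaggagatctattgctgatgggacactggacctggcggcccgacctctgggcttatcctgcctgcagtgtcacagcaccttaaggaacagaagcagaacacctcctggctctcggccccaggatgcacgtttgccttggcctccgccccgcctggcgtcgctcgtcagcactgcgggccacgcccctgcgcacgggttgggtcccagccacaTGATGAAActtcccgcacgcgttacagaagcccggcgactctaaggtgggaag
Yars: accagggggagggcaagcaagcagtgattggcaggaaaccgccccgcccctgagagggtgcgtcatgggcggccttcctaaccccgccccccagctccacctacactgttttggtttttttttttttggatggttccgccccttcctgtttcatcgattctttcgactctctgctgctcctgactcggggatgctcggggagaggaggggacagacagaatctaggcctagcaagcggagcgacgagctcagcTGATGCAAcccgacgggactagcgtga
Tars: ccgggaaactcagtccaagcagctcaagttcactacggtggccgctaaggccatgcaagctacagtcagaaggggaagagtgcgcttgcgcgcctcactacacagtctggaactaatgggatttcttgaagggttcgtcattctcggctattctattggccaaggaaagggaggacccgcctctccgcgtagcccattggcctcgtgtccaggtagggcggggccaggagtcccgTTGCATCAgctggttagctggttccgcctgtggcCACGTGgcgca
These lie at chr13:49681880-49682159 (plus strand), chr6:7693180-7693459 (minus strand), chr4:129189653-129189932 (plus strand) and chr15:11399629-11399908 (minus strand), and each is written 5′ to 3′ on the strand of its gene. TTGCATCA is the core read on the other strand. Asns held the looser form only. The core also lay in the windows of genes that were not called, and for 3 of them it is shown in a 30-base stretch on the strand on which the core reads TGATGCAA, with the core in capitals.
Slc1a4: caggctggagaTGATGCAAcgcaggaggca
Got1: ggaggcttgtaTGATGCAAccaatgcaatg
Chac1: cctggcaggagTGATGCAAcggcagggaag
They lie at chr11:20332699-20332728 (plus strand), chr19:43524689-43524718 (plus strand) and chr2:119351038-119351067 (minus strand). The core was in the windows of 7 of the 27 members, beside 0.895% of all 32851 windows in the RefSeq table, the looser form in 10 of 27 beside 3.97%, and the E-box in 4 of 27 beside 7.15%. Among the members called in Foxp3UP against MockUP below, 3 of 11 with a window held the core, and among the other members 4 of 16 did. A match is a description of letters in the window and shows no binding.

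The libraries held 9389477 to 13226590 counts, and 1 of them stood apart. MockUP 2 lay at -52.8 on the second principal component, where the other 15 libraries lay between -13.4 and 30.1, and its counts rose most with gene length (Spearman's rho over genes 0.443). The 4 Foxp3UP libraries also lay apart from the other 12 on that component (10.98 to 30.1 against at most 8.1) and in the share of counts held by the top 10 genes (7.30% to 8.09% against 4.86% to 6.35%), and the part of this in the members' changes was not tested. Counts of called members that use MockUP 2 are therefore also given without it. Foxp3 itself, the gene in the group names, had levels of 15.2, 20.9, 29.5 and 28.8 CPM in Foxp3UP, 11.5, 13, 13.7 and 11.5 in MockUP, 10.3, 10.1, 10.4 and 10.2 in Foxp3DN and 12.6, 13.4, 11 and 14.6 in MockDN. It was higher in Foxp3UP than in MockUP without overlap (log2 fold change 0.92 ± 0.17 SE, edgeR adjusted p = 0.00233), while its Foxp3DN values all lay below those of MockDN and were not called (-0.33 ± 0.17, adjusted p = 1).

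In Foxp3UP against MockUP a part of the synthetase, transporter and amino acid enzyme genes fell, and the regulators of the stress response did not pass the test. By edgeR's quasi-likelihood test with Benjamini-Hochberg adjustment over all 13711 genes, at a threshold of 0.05 on both sides, 16 of the 39 members were lower in Foxp3UP and 0 were higher. Over all genes 12.1% were called, 5.99% as lower and 6.08% as higher. The called members were 5 of 8 synthetases of the multisynthetase complex, 4 of 12 other synthetases, 5 of 8 transporters, 2 of 4 enzymes and 0 of 7 stress response genes. At an unadjusted p under 0.05 there were 23 lower members and 0 higher ones, beside 13.4% of all genes as lower, and DESeq2 called 17 lower and 0 higher, beside 7.64%. The median log2 fold change of the members was -0.33, beside 0.00 over all genes, and 32 of 39 were negative. In these bulk libraries fewer cells of a type and less RNA per cell cannot be told apart.

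On mm10, Eprs spans chr1:185363044-185428360, Iars chr13:49682100-49734267, Slc7a5 chr8:121881150-121907694, Slc7a1 chr5:148327410-148399904, Slc1a5 chr7:16781340-16798274 and Asns chr6:7675169-7693254 in the deposited table. Counts are over the exons of each gene, from 2735 exonic bases for Asns to 18102 for Eprs among these.

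**Figure D1:**
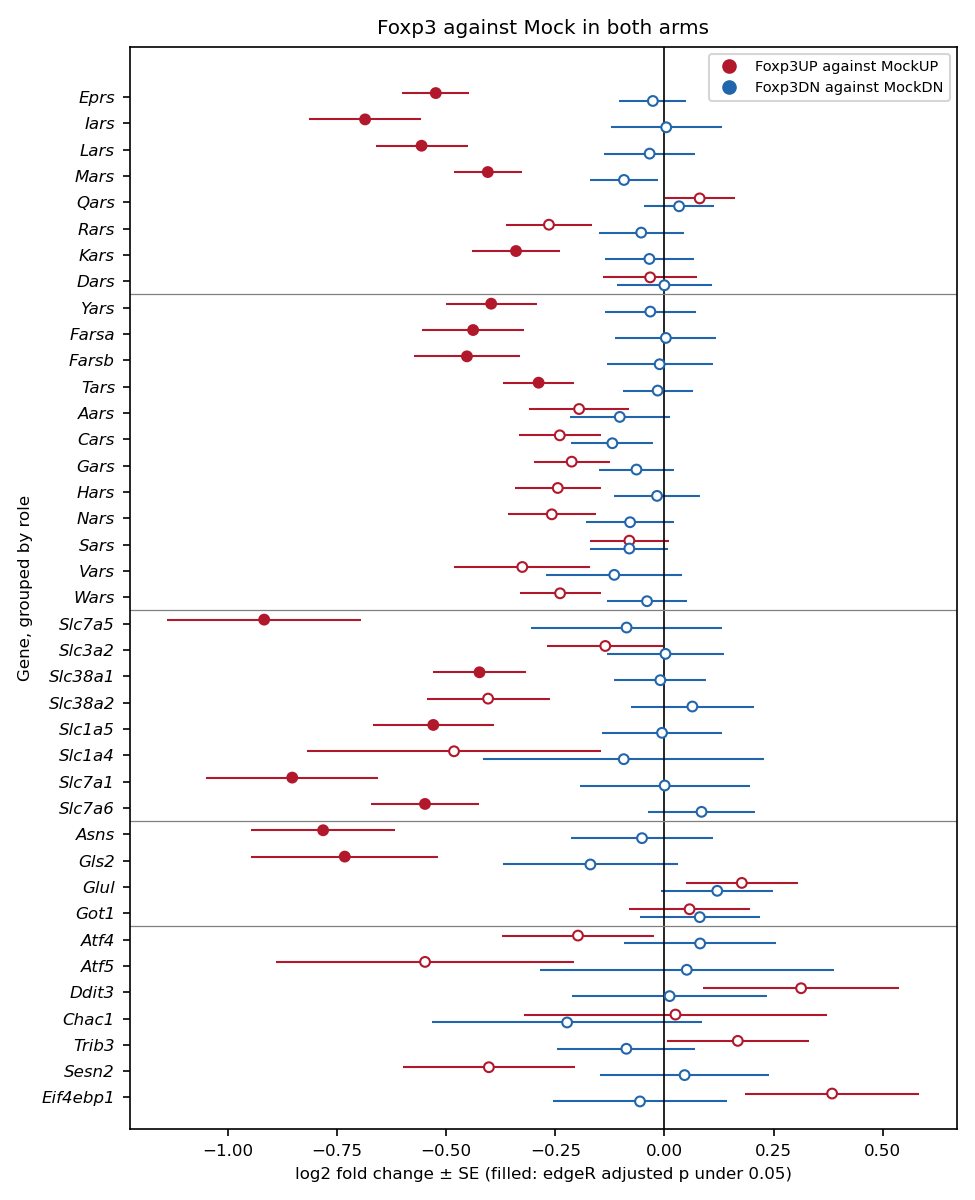
Log2 fold change ± SE (x axis) of each of the 39 genes (y axis, by role) in Foxp3UP against MockUP (red) and Foxp3DN against MockDN (blue), with filled points at an edgeR adjusted p under 0.05. The 16 filled points are all red and negative, from -0.29 for Tars to -0.92 for Slc7a5, while every blue point is open.

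The labels name no pairs, and replicate numbers were taken as pairs from the data (the check and its limits are under the processing). A fit with the number as a block called more members. With the block, 26 members were lower and 0 higher, beside 12.0% of all genes called as lower. The additions were Rars, Aars, Cars, Gars, Hars, Nars, Vars, Wars, Slc38a2 and Sesn2, and all 16 members called without the block stayed called. In 26 of the 39 members Foxp3UP was below MockUP in all 4 same-numbered pairs. Pairs were not counted over all genes, so no share can be set beside this count. Without MockUP 2, 17 members were lower, beside 6.97% of all genes. Scaling by library totals called 21 lower members, beside 7.88% of all genes, and over all genes it shifted the split from 833 higher and 821 lower to 646 higher and 1081 lower.

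The mean of each role by library shows where the groups part. Each gene's log2(CPM + 0.5) was set against its own mean over the 16 libraries and averaged over the genes of a role. For the multisynthetase complex this mean was -0.16, -0.15, -0.31 and -0.24 in Foxp3UP 1 to 4 and 0.10, 0.18, 0.10 and 0.10 in MockUP 1 to 4. For the transporters it was -0.71, -0.24, -0.30 and -0.36 against -0.20, 0.35, 0.19 and 0.19, so MockUP 1 lay close to the Foxp3UP libraries and Foxp3UP 1 lay lowest. For the stress response genes the values were -0.32, 0.04, -0.02 and -0.10 against -0.28, -0.27, 0.03 and 0.17, which overlap.

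**Figure D2:**
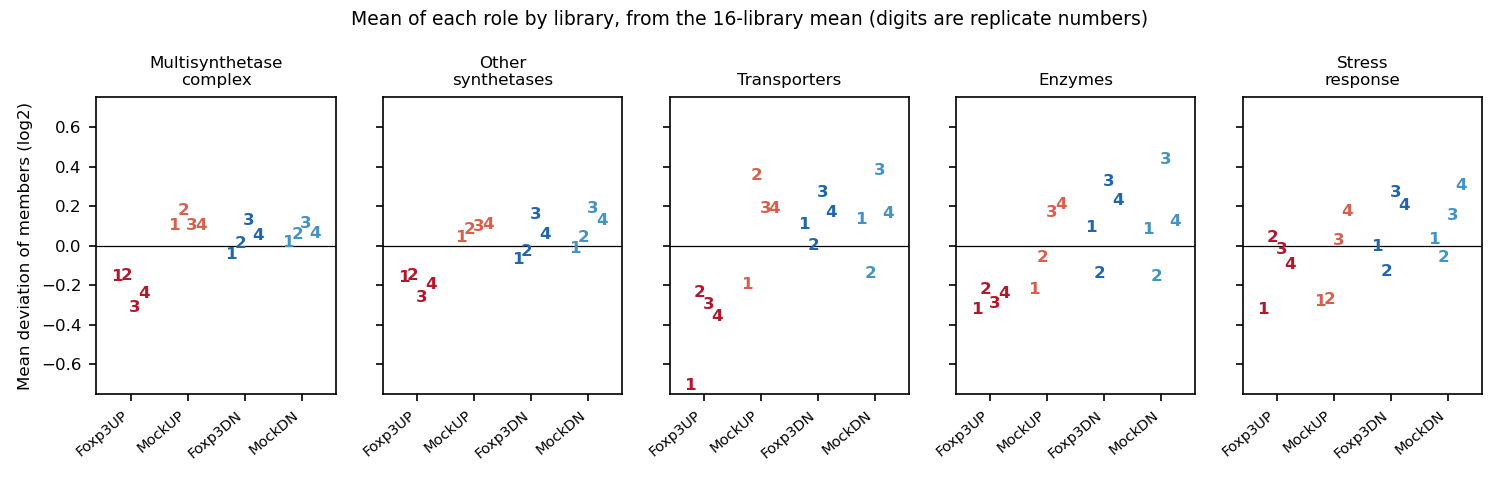
Mean deviation of the genes of each role (y axis, log2, from each gene's mean over the 16 libraries) in each library, with digits for replicate numbers and groups on the x axis. Both synthetase panels show the 4 Foxp3UP libraries below the other 12, and the stress response panel shows the groups mixed.

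Among the synthetases of the multisynthetase complex, Eprs, Iars, Lars, Mars and Kars fell, and Rars, Qars and Dars were not called. Levels are TMM-scaled CPM, the counts of a gene relative to the size of its library, given in the order of replicates 1 to 4, and fold changes are on the log2 scale with the SE of the fit. Eprs, which charges both glutamate and proline, had 211, 238, 206 and 225 CPM in Foxp3UP and 289.7, 339, 324 and 313 CPM in MockUP. The groups were far from overlapping, with means of 220.0 ± 14.3 and 316 ± 20.6 (SD, n = 4), and the change was -0.52 ± 0.08 (edgeR adjusted p = 0.000529). Iars, the isoleucine synthetase, had 67.8, 79.9, 63.4 and 69.3 CPM against 97.8, 150.2, 106 and 97.7 CPM. All Foxp3UP values were below all MockUP values and MockUP 2 was the highest, with a change of -0.69 ± 0.13 (adjusted p = 0.00249) and of -0.52 without MockUP 2. Lars, which charges leucine, had 71.1, 77.4, 65 and 64.1 CPM against 93.6, 127, 93.4 and 94.7 CPM, again with MockUP 2 on top and no overlap (-0.56 ± 0.11, adjusted p = 0.00264). Mars, which charges methionine, had 104, 117, 102 and 106 CPM against 135, 143, 144 and 144 CPM, with less spread in both groups (-0.40 ± 0.08, adjusted p = 0.0028). Kars, the lysine synthetase, had 179, 174, 171 and 178 CPM against 219, 194, 224 and 251 CPM (-0.34 ± 0.10, adjusted p = 0.0367). Its call ended when any Foxp3UP library was left out (adjusted p from 0.0612 to 0.0854), without MockUP 3 (0.0643) and without MockUP 4 (0.0973).

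The other synthetases of the complex did not pass the test. Rars, the arginine synthetase, had 89.6 ± 8 CPM in Foxp3UP and 108 ± 8.69 CPM in MockUP (-0.26 ± 0.10, adjusted p = 0.0906), and it passed with the replicate block (0.0123) and without MockUP 2 (0.0331). Dars, which charges aspartate, was at -0.03 ± 0.11 (adjusted p = 0.886) and Qars, which charges glutamine, at 0.08 ± 0.08 (adjusted p = 0.57). Their libraries overlapped, at 191 to 264 CPM in Foxp3UP against 197 to 255 in MockUP for Dars and at 83.6 to 96.8 against 77.6 to 91.4 for Qars. The exons of Mars share 68 bases with those of Ddit3 on the other strand, and the use of strand in counting is not known here.

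Among the 12 other cytosolic synthetases, Yars, Farsa, Farsb and Tars fell. Farsa and Farsb encode both subunits of the phenylalanine synthetase. Farsa had 94.1, 97.7, 95.2 and 100.2 CPM in Foxp3UP and 119, 112, 141 and 153 CPM in MockUP (-0.44 ± 0.12, adjusted p = 0.0202). Farsb had 109, 96.1, 93.7 and 97.3 CPM against 126, 112, 145 and 159.9 CPM (-0.45 ± 0.12, adjusted p = 0.022). For both subunits MockUP 3 and 4 were the highest libraries and no Foxp3UP library reached the lowest MockUP one. Yars, the tyrosine synthetase, had 73.1, 84.6, 82.9 and 87.5 CPM against 95.3, 99.4, 117 and 121 CPM (-0.40 ± 0.10, adjusted p = 0.0197). Tars, the threonine synthetase, had 108, 108, 108 and 115 CPM against 131, 138, 136 and 133 CPM, with little spread in both groups (-0.29 ± 0.08, adjusted p = 0.0271). These calls were close to the threshold. That of Farsa ended without Foxp3UP 3 (0.0502) or MockUP 4 (0.0597), and that of Farsb without Foxp3UP 2, 3 or 4 or MockUP 3 or 4 (adjusted p from 0.0558 to 0.069). That of Yars ended without Foxp3UP 1 (0.0602), MockUP 3 (0.0506) or MockUP 4 (0.0533), and that of Tars without Foxp3UP 1, 2 or 3 or MockUP 3 (from 0.0535 to 0.0673).

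The remaining 8 had negative changes that did not pass, from -0.08 to -0.33. Vars, the valine synthetase, was at -0.33 ± 0.16 (adjusted p = 0.191), with a wide spread of 307, 281, 212 and 231 CPM in Foxp3UP and 342, 431, 256 and 264 CPM in MockUP. Replicates 1 and 2 were above replicates 3 and 4 in both of those groups, and without MockUP 2 the change of Vars was -0.16. Gars, which charges glycine, was at -0.21 ± 0.09 (adjusted p = 0.125) and Wars, which charges tryptophan, at -0.24 ± 0.09 (adjusted p = 0.105), and in both every Foxp3UP library was below every MockUP library. Nars, for asparagine, was at -0.26 ± 0.10, Hars, for histidine, at -0.24 ± 0.10, and Cars, for cysteine, at -0.24 ± 0.09, with adjusted p of 0.109, 0.119 and 0.111. Aars, for alanine, was at -0.20 ± 0.11 (adjusted p = 0.293) and Sars, for serine, at -0.08 ± 0.09 (adjusted p = 0.621). With the replicate block all of these but Sars passed, at adjusted p of 0.0106 for Vars, 0.0153 for Nars, 0.0163 for Gars, 0.0165 for Wars, 0.0175 for Cars, 0.0201 for Hars and 0.047 for Aars, while Sars stood at 0.408. Without MockUP 2 the change of Aars was -0.08 and that of Sars -0.14. Hars also passed without MockUP 2 (0.0339) and Nars without MockUP 1 (0.0444). Hars shares 195 exonic bases with Hars2, a mitochondrial synthetase gene on the other strand.

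**Figure D3:**
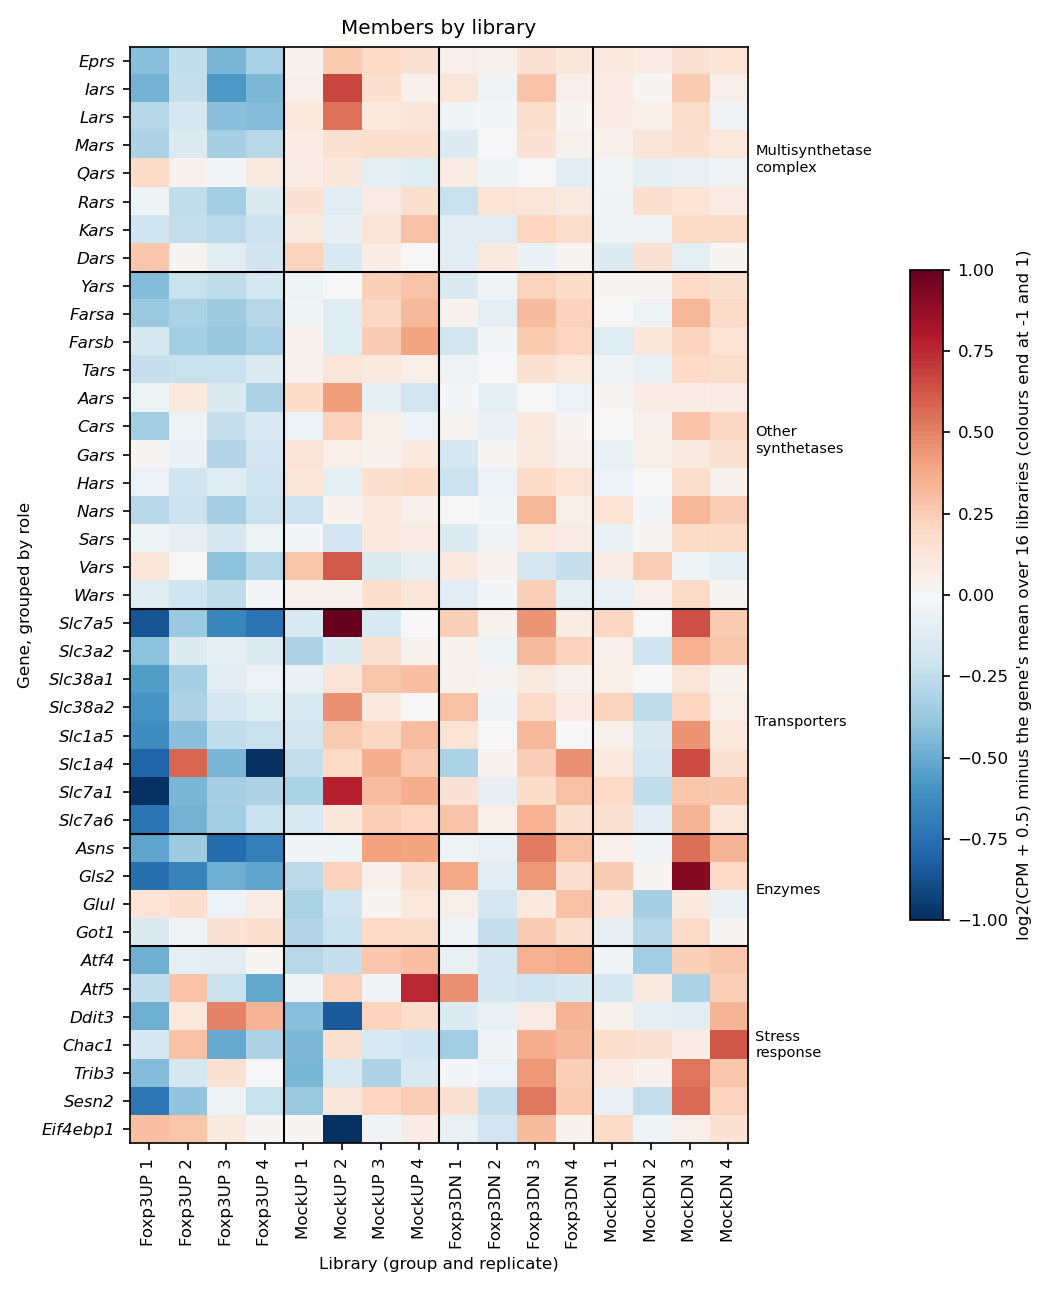
Each cell shows a gene's log2(CPM + 0.5) in 1 library minus that gene's mean over the 16 libraries, with genes by role on the y axis and libraries by group on the x axis. Blue cells fill the Foxp3UP columns for most synthetase and transporter rows and for the enzymes Asns and Gls2, while Glul and Got1 are mixed there. MockUP 2 is darkest red for Slc7a5, Slc7a1 and Iars, and Eif4ebp1 is darkest blue in that library.

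Among the transporters, Slc7a5, Slc7a1, Slc7a6, Slc1a5 and Slc38a1 fell. Slc7a5, the light chain that carries leucine and other large neutral amino acids, had 88.2, 124, 102 and 96.2 CPM in Foxp3UP and 145, 327, 145 and 160.2 CPM in MockUP, so the groups did not overlap and MockUP 2 was far above the rest of its group. The change was -0.92 ± 0.22 (edgeR adjusted p = 0.0125), and without MockUP 2 it was -0.55 (adjusted p = 0.0161). Slc7a1, a carrier of arginine and lysine, had 44.3, 67.8, 74 and 75.3 CPM against 75.1, 160.4, 116 and 120.5 CPM. MockUP 1 lay below Foxp3UP 4 by a fraction of a CPM, and the change was -0.85 ± 0.20 (adjusted p = 0.00948). Slc7a6, a light chain that exchanges cationic for neutral amino acids, had 49.9, 60.2, 65.8 and 71.4 CPM against 75.4, 90.3, 98.8 and 97 CPM (-0.55 ± 0.12, adjusted p = 0.00809). Slc1a5, an exchanger of glutamine and other neutral amino acids, had 396, 458, 515 and 524 CPM against 538, 731, 704 and 759 CPM (-0.53 ± 0.14, adjusted p = 0.0189, and 0.0581 without Foxp3UP 1). Slc38a1, a sodium-coupled glutamine carrier, had 203, 237, 275 and 285 CPM against 285, 327, 362 and 368 CPM, where MockUP 1 fell just short of Foxp3UP 4 (-0.42 ± 0.11, adjusted p = 0.0146). In Slc38a1, Slc7a1, Slc7a6 and Slc1a5 replicate 1 was the lowest library of both groups.

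Slc3a2, the CD98 heavy chain with which Slc7a5 and Slc7a6 form their transporters, was not called. It had 555, 678, 694 and 671 CPM in Foxp3UP and 597, 678, 822 and 758 CPM in MockUP, with overlapping libraries (-0.14 ± 0.13, adjusted p = 0.565, and 0.132 with the block). The difference between the chains was not tested. Slc38a2, a sodium-coupled carrier of small neutral amino acids, was at -0.40 ± 0.14 (adjusted p = 0.0716), with 384, 466, 513 and 531 CPM against 519.8, 791, 616 and 579 CPM. Its libraries overlapped, and it passed with the block (0.00617), with DESeq2 (0.0358), with library totals (0.0385) and without MockUP 1 (0.031). Slc1a4, a carrier of alanine, serine and cysteine, was low in every library, at 2.03, 6.07, 2.71 and 1.63 CPM against 3.22, 4.56, 5.15 and 4.76 CPM. Foxp3UP 2 was the highest of these 8 libraries, the change was -0.48 ± 0.34 (adjusted p = 0.388), and without Foxp3UP 2 it was -1.05 (adjusted p = 0.0298).

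**Figure D4:**
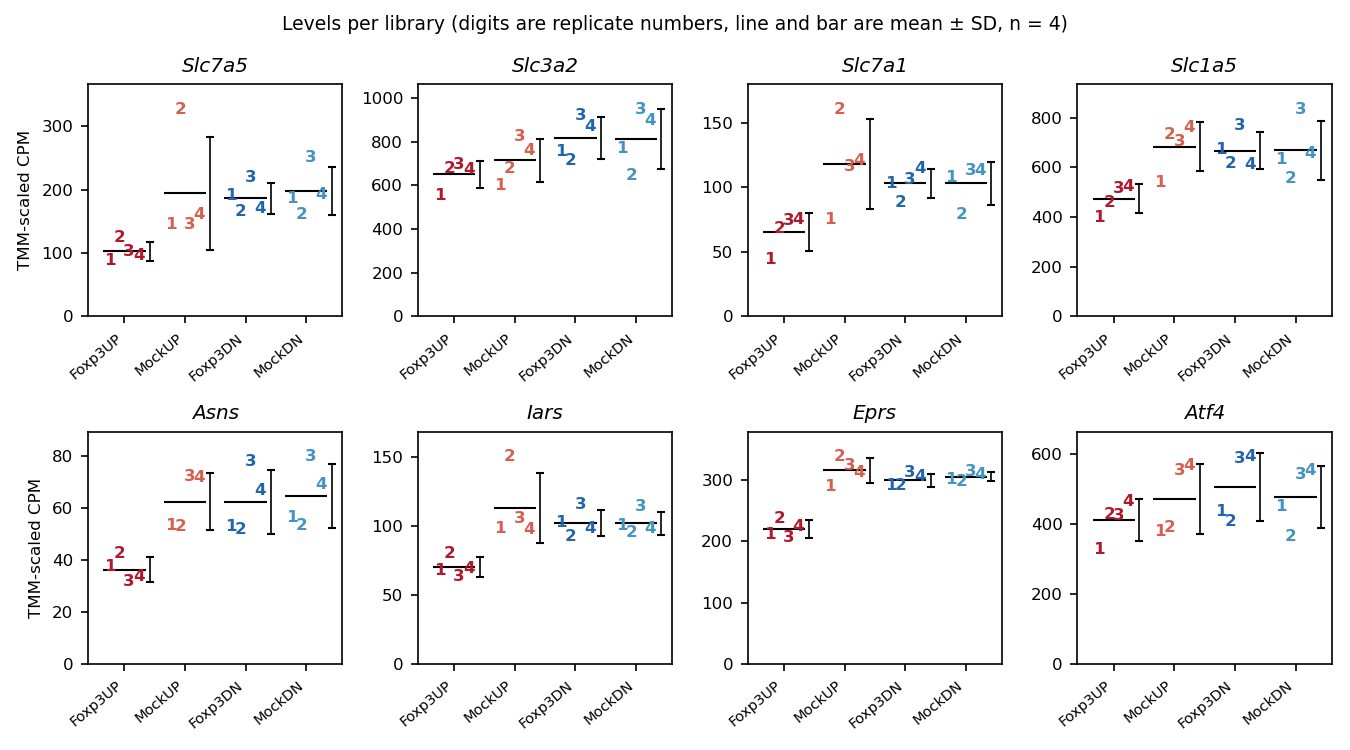
TMM-scaled CPM (y axis) of 8 genes in every library, by group on the x axis, with digits for replicate numbers and a line and bar for mean ± SD (n = 4). Foxp3UP lies lowest for Slc7a5, Asns, Iars and Eprs without overlap with MockUP, while Slc3a2 and Atf4 overlap, and MockUP 2 stands above its group for Slc7a5, Slc7a1 and Iars.

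Of the 4 amino acid enzymes, Asns and Gls2 fell. Asns makes asparagine from aspartate and glutamine. It had 37.5, 42.3, 31.6 and 33.5 CPM in Foxp3UP and 53.2, 52.8, 72.1 and 71.5 CPM in MockUP, with means of 36.2 ± 4.74 and 62.4 ± 10.8 (SD, n = 4) and no overlap. The change was -0.78 ± 0.16 (edgeR adjusted p = 0.0055). Gls2, a glutaminase, had 3.26, 3.49, 4.01 and 3.9 CPM against 4.79, 6.93, 6.06 and 6.6 CPM, also without overlap (-0.73 ± 0.21, adjusted p = 0.0335). Its call ended when any Foxp3UP library, MockUP 2, MockUP 3 or MockUP 4 was left out (adjusted p from 0.055 to 0.0875). Gls2 shares 97 exonic bases with Spryd4 on the other strand, whose mean count was 139.7 beside 68.3 for Gls2, so reads of both may be mixed. Glul, which makes glutamine, was at 0.18 ± 0.13 (adjusted p = 0.409), with 37.8 ± 2.64 CPM against 33.5 ± 4.52 CPM. Got1, the cytosolic aspartate aminotransferase, was at 0.06 ± 0.14 (adjusted p = 0.838), with 112 ± 11.6 CPM against 108 ± 19.3 CPM.

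None of the 7 stress response genes passed edgeR's test in Foxp3UP against MockUP, none had an unadjusted p under 0.05, DESeq2 called 0 of them, and their median log2 fold change was 0.03. Atf4, the transcription factor at the head of the program, had 326, 428, 426 and 465 CPM in Foxp3UP and 378, 390.5, 552 and 566 CPM in MockUP. The groups overlapped and replicates 3 and 4 were the higher ones of MockUP (-0.20 ± 0.17, adjusted p = 0.509). Within replicates 3 and 4 alone Atf4 was called as lower (-0.35, adjusted p = 0.00187), and within replicates 1 and 2 it was at -0.03. ATF4 is controlled mostly at translation, which RNA counts do not measure. Sesn2, a leucine sensor upstream of mTORC1 and an ATF4 target, had 34.9, 43.9, 55.6 and 49.6 CPM against 44.6, 62.5, 67.3 and 68.8 CPM (-0.40 ± 0.20, adjusted p = 0.199). In each same-numbered pair its Foxp3UP value was below the MockUP value, and with the replicate block it was the 1 stress response gene called (adjusted p = 0.00177). It was also called within replicates 3 and 4 (-0.39, adjusted p = 0.0285). Ddit3, the pro-death factor CHOP, had 28.4, 43.1, 56.9 and 50.9 CPM against 29.9, 22.2, 46.9 and 45.2 CPM (0.31 ± 0.23, adjusted p = 0.405, and 0.13 without MockUP 2). Trib3, a pseudokinase induced by ATF4 and CHOP, had 13.6 ± 2.4 CPM against 12.1 ± 1.25 CPM (0.17 ± 0.16, adjusted p = 0.556).

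The other stress response genes were either very low or carried by 1 library. Eif4ebp1, a repressor of cap-dependent translation, had 42.6, 42, 36.8 and 34.8 CPM in Foxp3UP and 34.8, 14.9, 33.7 and 36.4 CPM in MockUP. MockUP 2 was far below its group, and the change of 0.38 ± 0.20 (adjusted p = 0.231) was 0.16 without it. Atf5, a transcription factor related to ATF4, was at -0.55 ± 0.34 with 0.983 ± 0.361 CPM against 1.48 ± 0.549 CPM (adjusted p = 0.324), and Chac1, which degrades glutathione, at 0.03 ± 0.35 with 0.914 ± 0.352 CPM against 0.913 ± 0.243 CPM (adjusted p = 0.974). Both SE were above the median of 0.18 over all genes, so these changes are less certain than most. The part of low counts in this was not tested. Atf5 also shares 82 exonic bases with Nup62, whose mean count was 1692 beside 12.9 for Atf5.

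The size of the changes differed between replicate sets, and this difference was not tested. Sample numbers in the titles place replicates 1 and 2 of every group before replicates 3 and 4. Slc7a5 was at -1.15 within replicates 1 and 2 and at -0.64 within replicates 3 and 4, and Slc7a1 at -1.07 and -0.69. The order was the opposite for Asns, at -0.41 and -1.16, and for Farsb, at -0.21 and -0.70. Eprs, at -0.49 and -0.59, and Lars, at -0.57 and -0.56, were close in both sets. Of the 16 called members all were negative in both sets. They were called as lower over these same libraries, so the shared sign is no separate evidence. With 2 libraries a group, 0 members were called within replicates 1 and 2, where 31 of 14006 genes were called in all and DESeq2 was not run, and 25 within replicates 3 and 4, all lower, where 3025 of 13647 were and 12.0% as lower.

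**Figure D5:**
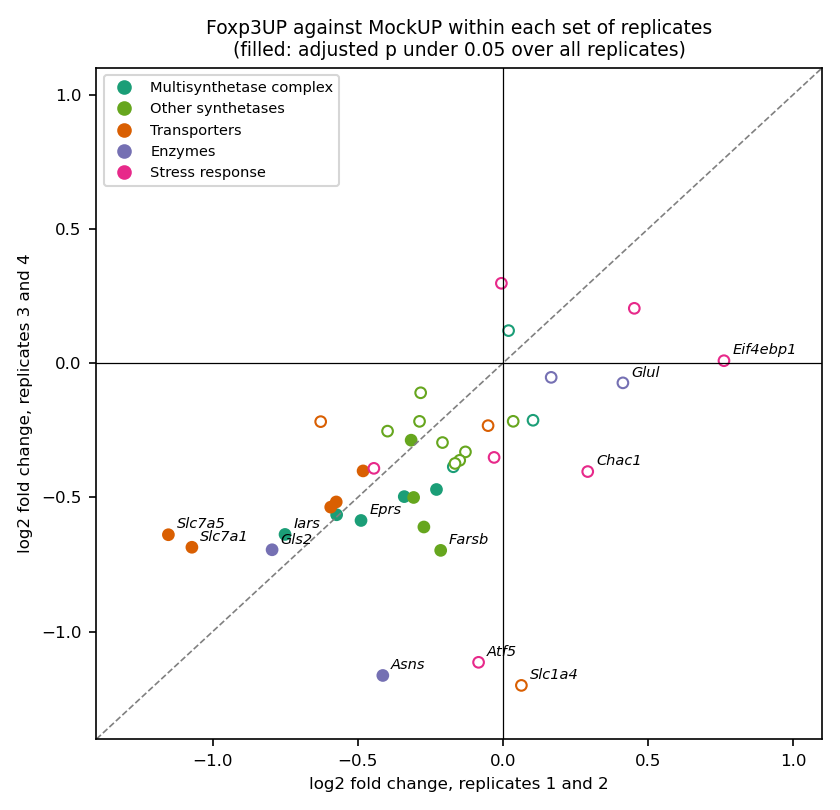
Log2 fold change of Foxp3UP against MockUP within replicates 1 and 2 (x axis) and within replicates 3 and 4 (y axis), 1 point per gene, coloured by role and filled where called over all replicates. Every filled point is in the lower left, and these genes were called as lower over the same libraries. Slc7a5 and Slc7a1 are above the dashed line of equal change and Asns and Farsb below it.

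In Foxp3DN against MockDN no member passed the test. EdgeR called 0 of 39, with 0 at an unadjusted p under 0.05 and 0 by DESeq2, and over all genes 0.00729% were called, which is 1 gene. The members' log2 fold changes ran from -0.22 (Chac1) to 0.12 (Glul) around a median of -0.03, beside 0.00 over all genes. Slc7a5 had 190.4, 166, 219 and 169.7 CPM in Foxp3DN and 186, 162, 251 and 192 CPM in MockDN (-0.09 ± 0.22), where replicate 3 was the highest of both groups. Eprs had 292, 291, 312 and 306 CPM against 302, 298, 314 and 310.0 CPM (-0.03 ± 0.08), and Iars 103, 92.2, 115 and 98.1 CPM against 100.1, 95.2, 114 and 98 CPM (0.00 ± 0.13). Asns had 53, 51.6, 78 and 66.5 CPM against 56.2, 53.2, 79.7 and 68.9 CPM (-0.05 ± 0.16), with replicates 3 and 4 above replicates 1 and 2 in both groups. Slc7a1 was at 0.00 ± 0.19 and Slc7a6 at 0.09 ± 0.12.

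The test of the difference between the effects of both arms called 1 member. Eprs differed by -0.50 ± 0.11 on the log2 scale (UP effect minus DN effect, edgeR adjusted p = 0.0266), beside 0.868% of all genes called as lower. That call ended without Foxp3UP 1 (0.0552), 3 (0.0654) or 4 (0.0506), without MockUP 3 (0.0566), without Foxp3DN 3 (0.0633) or 4 (0.0658) and without MockDN 1 (0.0656), 2 (0.0622) or 4 (0.057). Without MockUP 2, 2 members passed as lower, beside 191 of all 13941 genes tested there. The median over members was -0.28, and 16 members were lower at an unadjusted p under 0.05, beside 7.82% of all genes. With the replicate block 17 members passed as lower and 0 as higher, beside 6.16% of all genes called as lower. Among these were Slc7a6 at -0.64 (block adjusted p = 0.000653), Iars at -0.67 (0.00158), Slc7a1 at -0.84 (0.00165), Slc7a5 at -0.76 (0.00966) and Asns at -0.72 (0.0177). This contrast uses the same libraries as the comparison within each arm and is no separate evidence for them.

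The Mock groups were compared with each other because each serves as a control. In MockUP against MockDN edgeR called 0 of 39 members, beside 0.00729% of all genes, with 1 member at an unadjusted p under 0.05 and 0 by DESeq2. That member, Trib3, had 10.5, 13.1, 11.7 and 13.1 CPM in MockUP and 15.5, 15.1, 21.4 and 17.8 CPM in MockDN, with every MockUP library below every MockDN library (-0.53 ± 0.16, adjusted p = 0.997). Without MockUP 2 the count was also 0. The median over members was 0.01. Eprs was at 0.05 ± 0.08, Slc7a5 at -0.03 ± 0.22 and Asns at -0.05 ± 0.16.

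Counted without regard to the test, 16 of the 39 members had every Foxp3UP library below every MockUP library, beside 7.29% of all genes. These included Gars and Wars, which were not called, and did not include Slc38a1 and Slc7a1, which were. The RPKM scale divides scaled reads by all annotated exonic bases of a gene. The lengths of the transcripts in these cells were not measured, so RPKM levels of different genes can be compared only roughly. On this scale the highest members over all 16 libraries were Slc3a2 (mean 212), Atf4 (198) and Slc1a5 (149), and the lowest Atf5 (0.593), Chac1 (0.673) and Slc1a4 (1.05). The heavy chain Slc3a2 had an RPKM level of 184 ± 18 in Foxp3UP and 202 ± 27.7 in MockUP, while its partner Slc7a5 had 27.7 ± 4.17 and 52.4 ± 24 and Slc7a6 13.5 ± 2.01 and 19.8 ± 2.33 (SD, n = 4). The synthetases spanned RPKM means from 12.1 for Aars to 82.0 for Gars. Farsb and Farsa, whose proteins join in equal number, had 51.8 ± 8.11 and 28.9 ± 4.19 RPKM in MockUP and 37.8 ± 2.61 and 21.3 ± 0.601 RPKM in Foxp3UP. Before division by length their MockUP means were close, at 135.6 and 131.2 CPM, over 2620 and 4538 exonic bases.

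Other genes of the same pathways were read from lists of symbols, and their calls stand beside 5.99% of all genes called as lower and 6.08% as higher. Of 17 mitochondrial synthetases, which charge tRNAs inside the organelle, 2 fell in Foxp3UP against MockUP and 0 rose, with a median of -0.16. They were Vars2 (-0.58 ± 0.11, adjusted p = 0.00286) and Ears2 (-0.58 ± 0.17, adjusted p = 0.0287). With the replicate block 6 of the 17 were lower and 1 higher, beside 12.0% and 13.3% of all genes. Of 4 genes for the scaffold of the synthetase complex and tRNA export (median -0.46), Xpot, the exportin of tRNA, fell, with 47.3, 53.8, 46.9 and 49.5 CPM in Foxp3UP against 67.6, 111, 76.4 and 71.5 CPM in MockUP (-0.73 ± 0.13, adjusted p = 0.00167). Of 12 genes for eIF2 alpha kinases, phosphatases and eIF2B, edgeR called 0, with 4 lower at an unadjusted p under 0.05, 1 by DESeq2 and 4 with the replicate block, beside 13.4%, 7.64% and 12.0% of all genes as lower. Of 16 tested genes of the wider ATF4 program (median -0.16) 1 rose and 1 fell: Stc2, a secreted glycoprotein (0.90 ± 0.23, adjusted p = 0.0165), and Aldh18a1, an enzyme of proline synthesis (-0.31 ± 0.09, adjusted p = 0.0253).

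The lists of other transport and sensing genes held calls in both directions, as did all genes, of which 12.1% were called. Of 15 other amino acid transporters tested (median 0.09), 1 rose and 2 fell. Slc43a2 is a facilitated carrier of large neutral amino acids, which Slc7a5 also carries. It had 51.6, 52.7, 47.8 and 47.3 CPM in Foxp3UP against 34.6, 34.6, 26.4 and 26.7 CPM in MockUP (0.70 ± 0.12, adjusted p = 0.00133). Every Foxp3UP library was the higher one, opposite to Slc7a5. Slc6a6, the taurine transporter, was at -0.49 ± 0.10 (adjusted p = 0.00573) and Slc16a10, a carrier of aromatic amino acids, at -0.86 ± 0.25 (adjusted p = 0.0347, and 0.0915 without MockUP 2). Of 25 genes for amino acid sensing by mTORC1 (median 0.01), 3 rose and 1 fell. The arginine sensor Castor1 had 15.5, 14.1, 21.5 and 17 CPM against 6.91, 9.59, 8.88 and 9.84 CPM (0.95 ± 0.15, adjusted p = 0.000977), its relative Castor2 was at 0.80 ± 0.24 (0.0395), the Ragulator subunit Lamtor5 at 0.53 ± 0.17 (0.0463) and the sestrin Sesn3 at -0.58 ± 0.15 (0.0172). With the block the calls in this list were 5 higher and 4 lower, beside 25.3% of all genes called.

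Of 12 tested enzymes that use glutamine or make glutamate, 3 fell and 0 rose, with a median of -0.09. Over all genes 5.99% were called as lower and 6.08% as higher. Ppat, which starts purine synthesis with glutamine, had 52.6, 48.3, 39.2 and 44.1 CPM in Foxp3UP against 70.1, 72.2, 75.9 and 69.8 CPM in MockUP (-0.64 ± 0.09, adjusted p = 0.000443). Bcat1, the cytosolic branched-chain aminotransferase, had 22.2, 28.7, 24.9 and 27.3 CPM against 43.9, 43.6, 53.4 and 55.7 CPM (-0.93 ± 0.14, adjusted p = 0.000602). Cad, which starts pyrimidine synthesis with glutamine, was at -1.09 ± 0.27 (adjusted p = 0.0138), with MockUP 2 at 142 CPM above 45.1 to 59.9 in its group. In the test of the difference between arms Ppat (adjusted p = 0.0113), Bcat1 (0.0478), Slc43a2 (0.0286) and Castor1 (0.0347) also passed.

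Genes of other cells and of cell division were set beside these results. Of 31 proliferation genes edgeR called 0 in Foxp3UP against MockUP, with 0 at an unadjusted p under 0.05 and 0 by DESeq2, and their median log2 fold change was 0.09. With the replicate block 7 of them rose and 0 fell, beside 13.3% of all genes called as higher. The 10 identity genes of CD8 T cells were present in every library, summing to 9149 to 10570 CPM in Foxp3UP, 7060 to 9632 in MockUP, 8952 to 9766 in Foxp3DN and 8691 to 9207 in MockDN. Of them Cd2, an adhesion receptor of T cells, was called as higher in Foxp3UP (0.61 ± 0.16, adjusted p = 0.0214), and with the block 4 were. The 3 CD4 T cell genes summed to 16.1 to 20.7 CPM in Foxp3UP and 17.4 to 27.8 in MockUP, with Cd40lg called as lower (-1.23 ± 0.21, adjusted p = 0.0014). Of the 2 CD4 genes tested, the other went the opposite way, at 0.60 and without overlap. That gene was not called in the main fit and was called as higher with the block. The 10 dendritic cell genes summed to 132.9 to 152.3 CPM and 128.3 to 147.5, with Itgax called as lower (-1.45 ± 0.21, adjusted p = 0.000472) and H2-Ab1 as higher (0.82 ± 0.22, adjusted p = 0.0244), and Siglech at 0 in every library. Genes of pigment cells, as in melanoma, summed to 63.2 to 145.3 CPM in Foxp3UP, 63.5 to 95.5 in MockUP, 37.0 to 82.7 in Foxp3DN and 23.1 to 74.3 in MockDN. The 12 macrophage genes summed to 55.4 to 80.0 CPM in Foxp3UP and 45.5 to 62.6 in MockUP, with Cd68 called as higher (0.86 ± 0.16, adjusted p = 0.00207). Of the 9 macrophage genes tested, 7 had positive changes and 2 negative ones (lowest -0.40), and 3 of the 12 stayed below 1 CPM in every library. The B cell list summed to 282 to 359 CPM in Foxp3UP and 129.6 to 207 in MockUP, nearly all of it Ighm, with Ms4a1 and Pax5 at 0 in every library. The part of these cells in the lower synthetase, transporter and enzyme counts was not tested.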

How the data were processed

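RNA-seq libraries were measured in 4 groups of 4. The authors deposited 1 table of raw read counts per gene. STAR 2.6.1, Subread 1.6.3 and mm10 are named per the submitters' processing notes, and the sources used here do not give counting options, strand or annotation release, so reads of overlapping or antisense genes may be shared. Of 55573 identifiers 55480 were found in GENCODE M21, which gave symbols, and 55304 matched it in both coordinates.

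Each library held 9389477 to 13226590 counts. Genes were kept by filterByExpr of edgeR 4.0.16 (minimum count 10), scaled by TMM and tested in R 4.3.3 with the robust quasi-likelihood F test over all 16 libraries, 1 term per group, Benjamini-Hochberg adjusted over 13711 genes, threshold 0.05, two-sided. The SE is the log2 fold change divided by the square root of F, with a median over all genes of 0.18 in Foxp3UP against MockUP. DESeq2 1.42.0, other scalings and filters, the groups compared alone, a replicate block, each set of replicates and leaving out each library were alternatives. Steps were tested on simulated data.

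Same-numbered libraries deviated together, with correlations for UP replicates 1 to 4 of 0.630, 0.213, 0.297 and 0.398 and for DN replicates 1 to 4 of 0.364, 0.582, 0.545 and 0.298, so the numbers were taken as pairs from the data. Differently numbered libraries of the same set (1 with 2, 3 with 4) had 0.0444 to 0.364, and those of different sets -0.516 to -0.0336, so much of the shared deviation lies between the sets. MockUP 3 correlated more with Foxp3UP 4 (0.364) than with Foxp3UP 3 (0.297), so pairs within a set are less certain. The members and lists were chosen with earlier results of these data known. All 39 members are named. From each other list up to 4 genes called in Foxp3UP against MockUP with the smallest adjusted p are named.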

Additional observations from a re-analysis of the deposited data

Results flagged for a closer look

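Of 156 sets of 4 libraries (39 genes in 4 groups), 13 had 1 library far from the other 3 by Dixon's 95% criterion, which chance alone gives in about 5% of sets. MockUP 2 was the outlying library in 4 of them. There Iars had 150.2 CPM (the others 97.7 to 105.6), Lars 127 CPM (93.4 to 94.7) and Slc7a5 327 CPM (144.6 to 160.2), all high, and Eif4ebp1 had 14.9 CPM (33.7 to 36.4), which was low. Among the other UP libraries Mars was low in MockUP 1 at 135 CPM (143 to 144.5), Tars high in Foxp3UP 4 at 115 CPM (108 to 108.5) and Slc3a2 low in Foxp3UP 1 at 555 CPM (671 to 694). In the DN arm Lars was high in Foxp3DN 3 at 98.0 CPM (85.4 to 87.3), Rars low in Foxp3DN 1 at 87.4 CPM (109 to 113), Aars low in MockDN 1 at 112 CPM (118 to 118.3) and Slc7a1 low in MockDN 2 at 78.7 CPM (107.5 to 113). Atf5 was high in Foxp3DN 1 at 1.75 CPM (0.924 to 0.969) and Chac1 high in MockDN 4 at 1.91 CPM (1.15 to 1.27).

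The effect on Eprs differed between the arms by -0.50 on the log2 scale in the test of the difference itself (edgeR adjusted p = 0.0266). Foxp3UP was below MockUP in 4 of 4 same-numbered pairs, and Foxp3DN below MockDN also in 4 of 4, where the change was -0.03.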

How the results depend on the processing

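Foxp3UP against MockUP gave 16 called members, between 11 and 18 when 1 library was left out, 13 without a low-count filter, 16 with RLE size factors or the stricter filter, 17 with DESeq2 and 21 with library totals. It moved to 7 with only the groups compared, where Kars, Yars, Farsa, Farsb, Tars, Slc7a5, Slc38a1, Slc1a5 and Slc7a1 were at adjusted p of 0.0515 to 0.0919. It moved to 26 with the replicate block, to 0 within replicates 1 and 2 and to 25 within replicates 3 and 4. Over all genes, lower calls numbered 821 of 13711 in the main fit and 329 of 13022 with only the groups compared. They numbered 601 of 28482 without a low-count filter and 507 to 1001 when 1 library was left out. RLE size factors gave 866, the stricter filter 823, DESeq2 1047 and library totals 1081. The replicate block gave 1650, replicates 1 and 2 gave 8 of 14006, and replicates 3 and 4 gave 1643 of 13647. The difference of effects gave 1 member, 2 with library totals, 5 with DESeq2, 17 with the replicate block, 0 within replicates 1 and 2, 15 within replicates 3 and 4, and 0 to 4 when 1 library was left out. Over all genes that test called 119 of 13711 as lower, 187 with library totals, 355 with DESeq2 and 844 with the replicate block. It called 0 as lower within replicates 1 and 2 and 1006 of 13647 within replicates 3 and 4. When 1 library was left out it called 39 to 260 as lower. Foxp3DN against MockDN and MockUP against MockDN gave 0 under every alternative run, and the block changed no call there. Signs turned for genes that were not called: within replicates 1 and 2 for Dars (0.104), Sars (0.036), Slc1a4 (0.0643) and Trib3 (-0.0047), within replicates 3 and 4 for Glul (-0.0729), Got1 (-0.0525) and Chac1 (-0.403), and with library totals for Chac1 (-0.0222). With 1 library left out Dars ran from -0.139 to 0.0344, Got1 from -0.0234 to 0.131 and Chac1 from -0.278 to 0.207. Without a filter Kars (adjusted p = 0.0701), Tars (0.122) and Slc7a5 (0.0536) were not called. The causes of these moves were not tested. Atf5 and Chac1 had means near 1 CPM in Foxp3UP and MockUP, and the part of depth in their results was not tested.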
